A study of Danio rerio with 7 samples.

Results

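Cadherins, junction proteins and the regulators of epithelial-mesenchymal transition (EMT) were followed in PAC2 cells, a permanent cell line from zebrafish embryos, between exponential growth (day 8 after seeding) and the stationary phase (day 14). The genes were chosen by name: every gene of the count matrix whose Ensembl name begins with the symbol of a cadherin, protocadherin, catenin, claudin, occludin, ZO protein, junctional adhesion molecule, connexin, nectin, keratin, vimentin, or a Snail, Twist, Zeb, Grainyhead-like or Ovo-like factor, plus ENSDARG00000057826 (*si:ch73-61d6.3*), which the study lists as occludin. This gave 121 of the 17570 genes in the matrix. All cells were wild type and untreated, so growth phase was the contrast, with 4 libraries of day 8 (replicates 1 to 4) and 3 of day 14 (replicates 1, 2 and 4; replicate 3 was lost before sequencing). Each replicate was a passage of its own, started on a separate day, and several wells went into 1 lysate. The medium was renewed once, shortly before the day 8 sampling, so time since renewal and growth phase cannot be told apart.

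Classical cadherins are transmembrane proteins that bind the same cadherin on a neighbouring cell, and their cytoplasmic tails are tied to actin through p120, beta and alpha catenin. E-cadherin (*cdh1*) is the cadherin of epithelia, whereas N-cadherin (*cdh2*) and cadherin 11 (*cdh11*) are typical of neural and mesenchymal cells. Claudins and occludin form tight junctions, which ZO proteins anchor to actin, while connexins form gap junctions. Keratins are intermediate filaments best known from epithelia, though not confined to them. In EMT, factors of the Snail, Twist and Zeb families repress *cdh1* and other epithelial genes, and cells take up mesenchymal genes such as *cdh2* and vimentin.

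The libraries held between 11252559 and 33414743 estimated counts, and 105 of the 121 genes passed 1 CPM on day 8, day 14 or both, taken as the geometric mean over the libraries of a day. The 121 genes took 0.923% to 1.15% of the counts of a library. CPM values are counts relative to TMM-scaled library sizes (factors 0.883 to 1.15). They were not corrected for transcript length here, so a level is compared only within a gene. Genes are called higher or lower on day 14 at an adjusted p below 0.05 in edgeR's quasi-likelihood test over all 17570 genes, and the log2 differences below are day 14 minus day 8 with their standard errors (SE). Of the cell types that markers were listed for, the 9 fibroblast and mesenchyme markers summed to 5141 to 7168 CPM on day 8 and 8466 to 10697 CPM on day 14, and 6 of them were called higher. The 5 epidermis and periderm markers, of which *krt4* gave nearly all counts, summed to 311 to 373 CPM on day 8 and 220 to 248 CPM on day 14, and 1, *krt4*, was called lower. The others had log2 differences of 0.74 (*krt5*), 0.64 (*cyt1*), 0.56 (*tp63*) and -0.30 (*agr2*). None of these others was called, and none exceeded 2.39 CPM in any library. Leukocytes and notochord had 1 listed marker each in the matrix, *spi1* and *col9a1*, and both stayed near 0, between 0.111 and 1.11 CPM. Pigment cell markers, of which *dct* gave nearly all counts, summed to 106 to 385 CPM on day 8 and 250 to 278 CPM on day 14. The 3 neural markers, of which *tubb5* gave nearly all counts, summed to 50.5 to 73.0 CPM on day 8 and 49.6 to 66.7 CPM on day 14. None of the pigment or neural markers was called in edgeR's test of growth phase alone. The 3 skeletal muscle markers summed to 117 to 171 CPM on day 8 and 28.1 to 51.4 CPM on day 14. Among them *acta1* gave most of the day 8 counts and was called lower (log2 difference -2.61). The muscle factors *myog* (log2 difference -0.05) and *myod1* (0.38) were not called. The 5 proliferation markers summed to 1636 to 1915 CPM on day 8 and 739 to 999 CPM on day 14, with all 5 called lower. Among all genes tested, 12.0% were called higher and 13.3% lower. The part of such shifts in the results below was not tested, and in RNA of whole cultures fewer cells of a type and less RNA per cell cannot be told apart.

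Of the 121 genes, 20 were called higher and 11 lower on day 14. That is 25.6% of them, against 25.3% of all genes tested in either direction, 12.0% of all genes higher and 13.3% lower, so the share of called genes was that of the whole matrix. The median log2 difference was 0.14 over the 121 genes and 0.003 over all genes. Without TMM scaling, which moved the median of all genes to -0.17, the split turned to 9 higher and 14 lower. With the replicate as a block it was 19 higher and 18 lower. In 40 of the 121 genes the libraries of the phases did not overlap (25 above, 15 below on day 14), against 34.8% of all genes. Leaving out 1 library changed the count of higher genes to 10 (without replicate 2 or 4 of day 8), 11 (without replicate 1 of day 14), 6 (without replicate 2 of day 14) or 10 (without replicate 4 of day 14), and that of lower genes to 7, 4 and 7 without replicate 2 of day 8 and replicates 2 and 4 of day 14. A core of 10 genes was called in all 14 alternative analyses: *cdh11*, *nectin1* (ENSDARG00000086034), *pcdh10*, *pcdh12*, *pcdh18* and *pcdh1gb2* higher, and *cdh1*, *ctnnd2b*, *twist2* and *cldn29* lower.

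**Figure D1:**
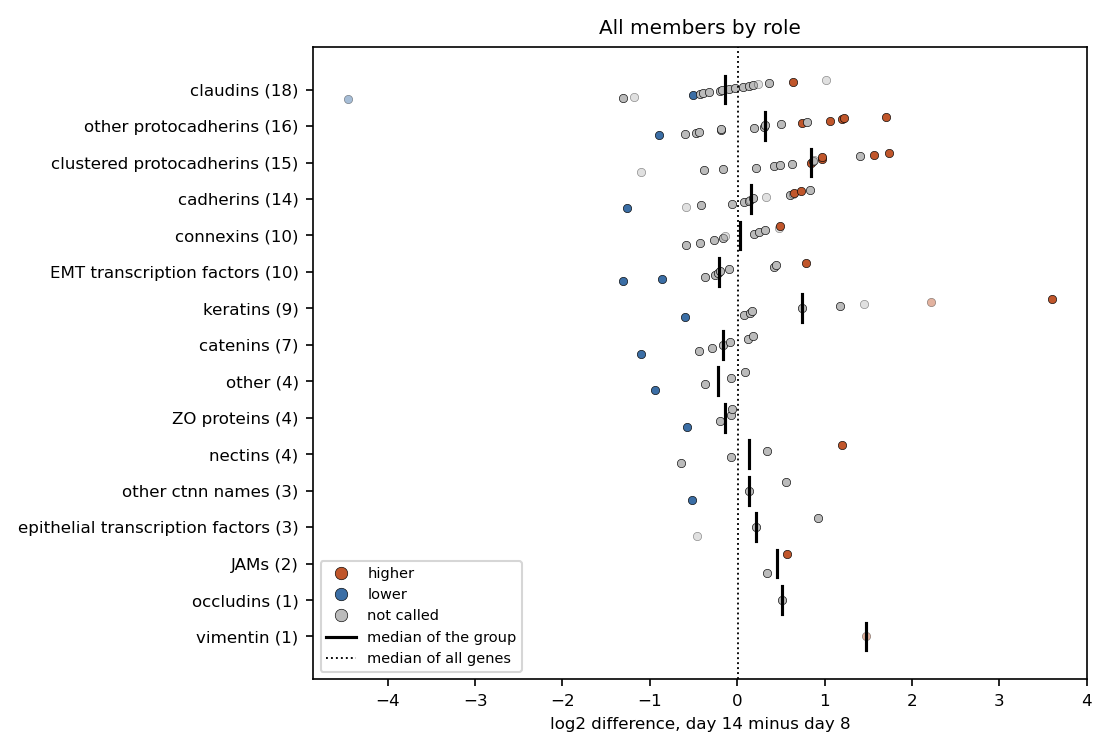
Log2 difference between day 14 and day 8 for all 121 genes, grouped by role with the number of genes in brackets. Orange and blue points are genes called higher and lower, grey points were not called, pale points lie at or below 1 CPM in both phases, black bars are group medians and the dotted line is the median of all genes; protocadherins hold 10 of the 20 genes called higher.

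Among the classical cadherins, *cdh1* and *cdh2* changed in opposite directions. *cdh1* (ENSDARG00000102750) stood at 62.0, 61.6, 51.4 and 54.1 CPM in replicates 1 to 4 of day 8 and at 28.4, 20.6 and 22.3 CPM in replicates 1, 2 and 4 of day 14. Every day 14 library lay below every day 8 library, and the transcript of E-cadherin fell 2.40-fold (log2 difference -1.26, SE 0.16, adjusted p = 3.40e-04) without being lost. *cdh2* (ENSDARG00000018693) stood at 175, 135, 96.2 and 120 CPM on day 8 and at 217, 206 and 195 CPM on day 14. N-cadherin transcripts thus varied more between the day 8 replicates than between those of day 14, and rose 1.57-fold (log2 difference 0.65, SE 0.19, adjusted p = 0.0240). The call of *cdh2* was lost with no TMM scaling (log2 difference 0.45, adjusted p = 0.179) and on omission of replicate 2 or 4 of day 8 or any 1 of the day 14 libraries, with log2 differences of 0.53 to 0.82 over the omission of each of the 7 libraries. *cdh11* (ENSDARG00000021442), known from mesenchyme, stood at 125, 119, 94.6 and 114 CPM on day 8 and at 174, 200 and 188 CPM on day 14 (log2 difference 0.73, SE 0.15, adjusted p = 0.00383). It rose in the same direction as *cdh2*, again with no overlap, and its call was kept in all 14 alternatives.

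The count of *cdh2* was also set against that of *cdh1* within each library, which does not depend on the scaling of libraries. As transcript length was not accounted for, only the change of this ratio is read. It was 2.82, 2.19, 1.87 and 2.21 in replicates 1 to 4 of day 8 and 7.64, 9.98 and 8.73 in replicates 1, 2 and 4 of day 14. The phases were far apart relative to their spread: the log2 ratio rose from 1.17 ± 0.24 (SD, n = 4) to 3.13 ± 0.19 (SD, n = 3). The rise was 1.96 (SE 0.17), a 3.88-fold change, with p = 0.0571 in a two-sided exact permutation test. The test doubles the p of a single direction, which makes this the smallest value it can give for 4 against 3 libraries. Within replicates 1, 2 and 4 the log2 ratio rose by 1.44, 2.19 and 1.98.

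**Figure D2:**
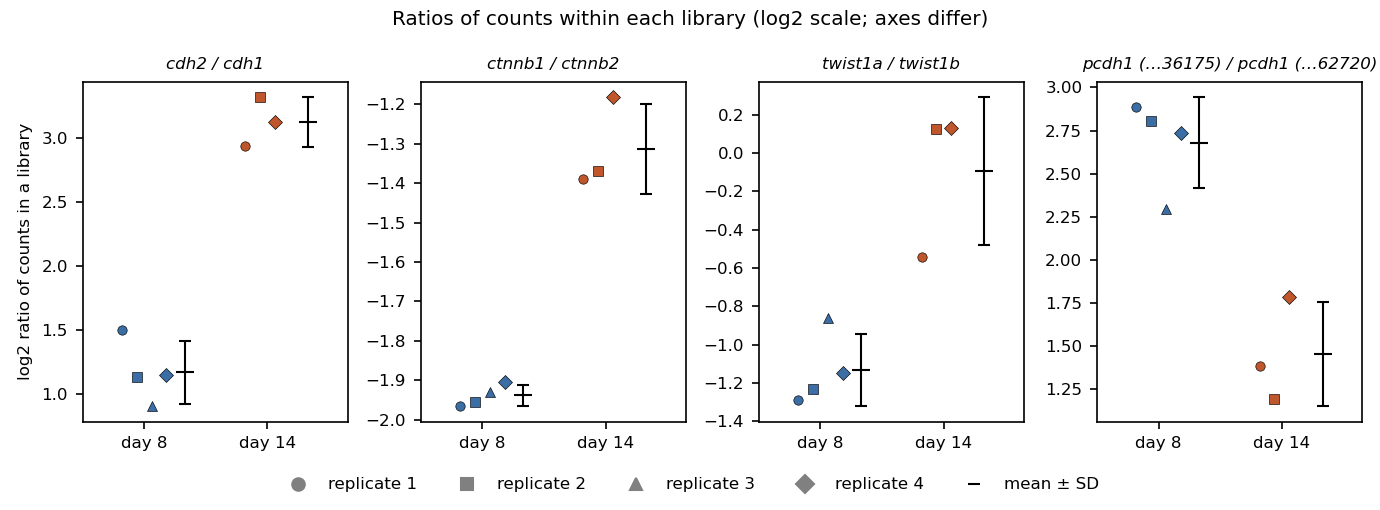
Log2 ratio of the counts of 2 genes within each library (y axis, scales differ between panels) on day 8 and day 14, with the symbol giving the replicate and the black mark the mean ± SD. The *cdh2* to *cdh1*, *ctnnb1* to *ctnnb2* and *twist1a* to *twist1b* ratios were higher in all 3 day 14 libraries than in any day 8 library, and the ratio of the *pcdh1* identifiers was lower.

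The other 11 cadherin genes were not called in edgeR's test, so 3 of 14 were called, or 21.4% against 25.3% of all genes. Of these 11, 2 were well above 1 CPM: *cdh29* stayed between 58.1 and 73.5 CPM in all 7 libraries (log2 difference -0.06, SE 0.14), and *cdh18* was at 27.5 to 40.3 CPM on day 8 and 24.3 to 28.7 CPM on day 14 (log2 difference -0.42, SE 0.16, edgeR adjusted p = 0.0841). With the replicate as a block *cdh18* was called lower (edgeR adjusted p = 0.0258). The remaining cadherins did not exceed 2.82 CPM in any library.

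Catenins link these cadherins to the cytoskeleton. *ctnna1*, alpha catenin, was at 212, 241, 210 and 259 CPM on day 8 and at 220, 199 and 233 CPM on day 14 (log2 difference -0.08, SE 0.15), and these ranges overlapped. *ctnnd1*, p120 catenin, was at 68.2, 68.1, 39.8 and 61.6 CPM on day 8 and at 52.2, 47.5 and 46.1 CPM on day 14. Replicate 3 of day 8 was the lowest of all 7 libraries, and *ctnnd1* was not called (log2 difference -0.29, SE 0.19, edgeR adjusted p = 0.289), whereas with the replicate as a block, where replicate 3 has no partner, it was called lower (log2 difference -0.44, edgeR adjusted p = 0.00761), as it was when replicate 3 of day 8 was left out. *ctnnd2b*, a delta catenin best known from neurons in mammals, fell from 30.7, 25.3, 17.8 and 20.4 CPM to 12.8, 11.01 and 8.83 CPM (log2 difference -1.10, SE 0.21, adjusted p = 0.00288), with all day 14 libraries below those of day 8. It was the 1 catenin of 7 that was called, or 14.3% against 25.3% of all genes. The paralog *ctnnd2* stayed between 1.75 and 3.39 CPM.

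Beta catenin joins cadherins to alpha catenin and is also the transcriptional effector of Wnt signalling, and zebrafish carry the paralogs *ctnnb1* and *ctnnb2*. *ctnnb1* was at 349, 338, 283 and 271 CPM on day 8 and at 403, 356 and 295 CPM on day 14 (log2 difference 0.18, SE 0.17, edgeR adjusted p = 0.479), a difference whose sign turned without TMM scaling. *ctnnb2* was at 1363, 1310.3, 1076 and 1016 CPM on day 8 and at 1055, 919.5 and 669.6 CPM on day 14 (log2 difference -0.43, SE 0.21, edgeR adjusted p = 0.150; 0.00664 with the replicate as a block). Neither was called, but they moved apart within a library. The ratio of *ctnnb1* to *ctnnb2* counts was 0.256, 0.258, 0.263 and 0.267 on day 8, nearly the same in each replicate, and 0.382, 0.387 and 0.441 on day 14. Its log2 value went from -1.94 ± 0.027 (SD, n = 4) to -1.31 ± 0.11 (SD, n = 3), a difference of 0.63. The beta-catenin ratio was chosen after its values were seen, among 19 ratios of paralogs, 9 of which did not overlap between phases (34.8% of single genes did not), so it is given with no test. Reads shared by paralogs could be divided between them by pseudo-alignment.

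Nectins are immunoglobulin-like adhesion molecules of the adherens junction. *nectin1* (ENSDARG00000086034) rose from 87.1, 72.0, 62.2 and 73.8 CPM on day 8 to 166, 159 and 184 CPM on day 14. The lowest day 14 library was well above the highest of day 8 (log2 difference 1.20, SE 0.15, adjusted p = 2.91e-04), a 2.30-fold rise that was called in all 14 alternatives. The second *nectin1* identifier, ENSDARG00000069767, was at 0.699 to 1.74 CPM and *nectin4a* at 0.532 to 2.32 CPM, with no call. *nectin3b* was at 23.0 to 30.1 CPM on day 8 and 30.4 to 38.7 CPM on day 14 (log2 difference 0.35, SE 0.15, edgeR adjusted p = 0.123).

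**Figure D3:**
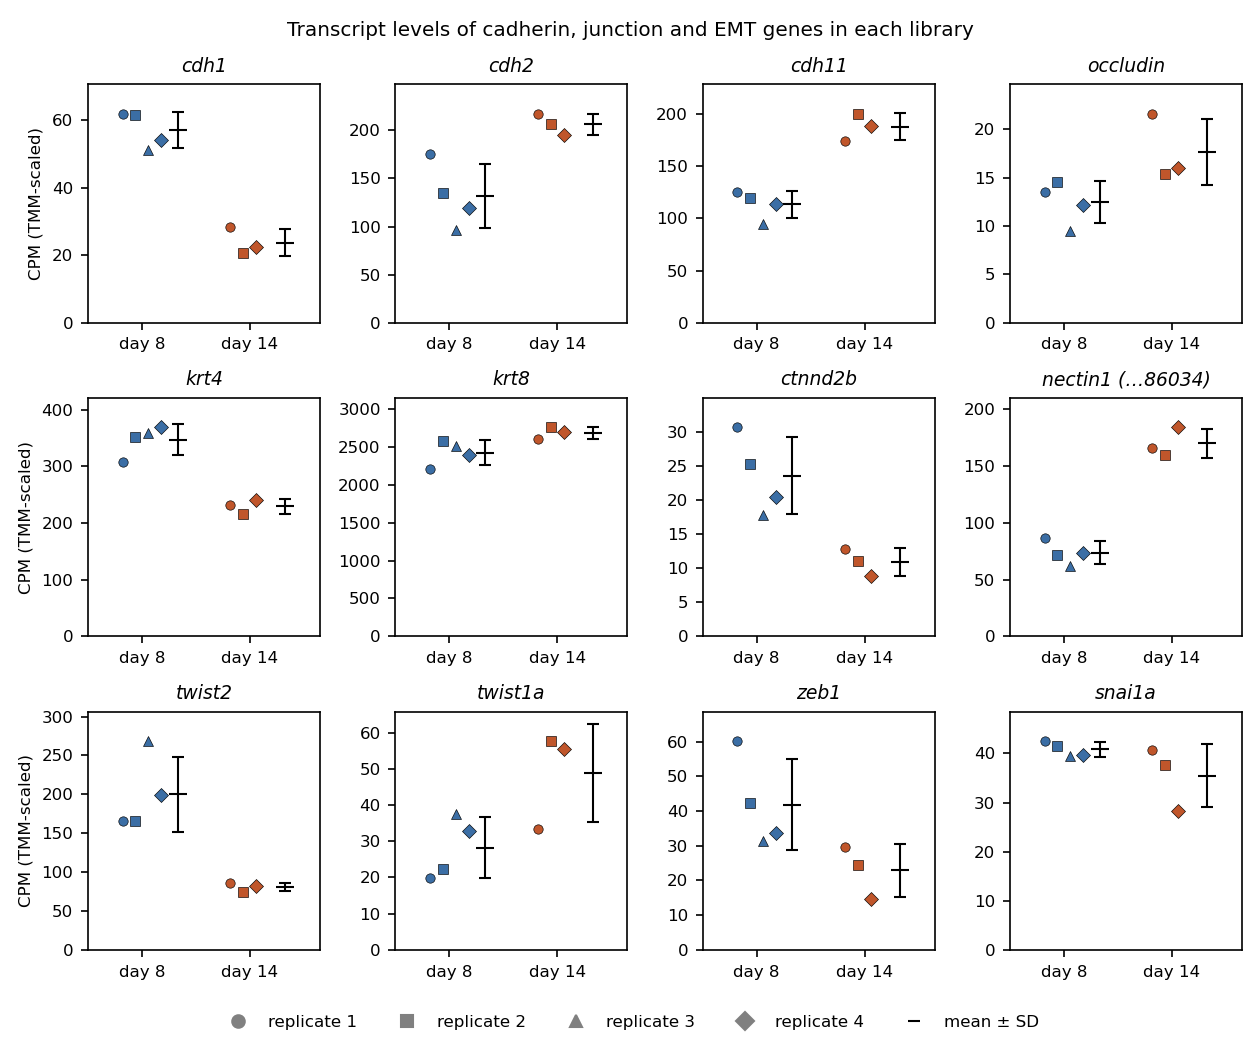
CPM of 12 genes in each library (y axis from 0, TMM-scaled), with the symbol giving the replicate and the black mark the mean ± SD of the phase. *cdh1*, *ctnnd2b*, *krt4*, *twist2* and *zeb1* lie lower in every day 14 library, *cdh2*, *cdh11*, *nectin1* and occludin higher, and *krt8*, *snai1a* and *twist1a* have their own patterns described in the text.

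Protocadherins, the largest branch of the cadherin superfamily, adhere weakly and lack the catenin-binding tail of classical cadherins. They held 10 of the 20 genes called higher: of 31 protocadherins 10 were called higher and 1 lower, against 12.0% higher and 13.3% lower among all genes, with a median log2 difference of 0.50. Without TMM scaling 5 were called higher and 1 lower, with a median of 0.31. The count of higher protocadherins fell to 4 without replicate 4 of day 8 or replicate 2 of day 14 and to 6 without replicate 1 of day 14, and with the replicate as a block 10 were higher and 4 lower.

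Of the 16 protocadherins outside the gene clusters, 5 were called higher (12.0% of all genes were). *pcdh12*, known from endothelium in mammals, went from 37.2, 25.6, 19.8 and 25.9 CPM to 72.3, 64.1 and 53.5 CPM (log2 difference 1.23, SE 0.20, adjusted p = 0.00116). *pcdh18*, of the delta group, went from 14.1, 10.7, 10.9 and 7.93 CPM to 23.9, 25.4 and 25.2 CPM (log2 difference 1.19, SE 0.19, adjusted p = 8.74e-04). Both rose with no overlap, by 2.34-fold and 2.29-fold. *pcdh10*, also of the delta group, rose 2.09-fold from 2.16, 1.77, 1.90 and 1.88 CPM to 3.84, 4.49 and 3.78 CPM (log2 difference 1.07, SE 0.23, adjusted p = 0.00553). All of these calls were kept in all 14 alternatives. Of the 3 endothelial markers listed, *egfl7* was called higher (1.37 to 2.55 CPM on day 8, 2.66 to 6.41 CPM on day 14; edgeR adjusted p = 0.0200), *kdrl* lower (1.41 to 6.21 and 0.958 to 2.28 CPM; edgeR adjusted p = 0.0367), and *tie1* was not called. They summed to 5.44 to 9.42 CPM on day 8 and 5.53 to 8.72 CPM on day 14, and their part in the rise of *pcdh12* was not tested. The call of *egfl7* was lost when replicate 2 of day 8 or replicate 1 or 2 of day 14 was omitted, and that of *kdrl*, whose phases overlapped, when replicate 1, 2 or 4 of day 8 or replicate 2 or 4 of day 14 was. *pcdh11* rose from 4.13 to 6.80 CPM on day 8 to 7.73 to 10.2 CPM on day 14 (log2 difference 0.74, SE 0.21, adjusted p = 0.0218), a call lost without TMM scaling and without replicate 2 or 4 of either day. *pcdh9* had 3 to 9 counts per library on day 8 and 14 to 41 on day 14 (log2 difference 1.70, SE 0.56, adjusted p = 0.0407), a call lost without TMM scaling and without any 1 library but replicates 1 and 3 of day 8.

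The 1 protocadherin called lower was *pcdh1* (ENSDARG00000036175), the relative of a mammalian protein of airway epithelium. It fell from 11.4, 10.8, 8.26 and 11.6 CPM to 6.27, 3.73 and 6.97 CPM (log2 difference -0.89, SE 0.23, adjusted p = 0.0149), and the call was lost only without replicate 2 of day 14, among the 14 alternatives. The second *pcdh1* identifier, ENSDARG00000062720, was at 1.54 to 1.75 CPM on day 8 and 1.63 to 2.40 CPM on day 14 and was not called. Of those not called, *pcdh15* (ENSDARG00000098257), whose mammalian counterpart is part of the tip links of hair cells, was at 73.0 to 118 CPM on day 8 and 58.8 to 80.0 CPM on day 14 (log2 difference -0.44, SE 0.20, edgeR adjusted p = 0.127), and *pcdh7* was at 25.3 to 43.8 CPM on day 8 and 35.3 to 39.2 CPM on day 14 (log2 difference 0.19, SE 0.18). With the replicate as a block, *pcdh15* (edgeR adjusted p = 0.0120), *pcdh19* (0.0345) and *pcdh20* (0.0400) were called lower as well.

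The clustered protocadherins are made from arrays of variable exons, each joined to constant exons that all genes of a cluster share, so pseudo-alignment could divide their reads. Of 15 in the matrix 5 were called higher, again against 12.0% of all genes, and none lower by edgeR, with a median log2 difference of 0.85. *pcdh1gb2* rose from 36.8, 31.5, 26.1 and 28.8 CPM to 61.8, 57.6 and 61.4 CPM (log2 difference 0.97, SE 0.15, adjusted p = 9.14e-04), with tight and separate groups, and was called in all 14 alternatives. *pcdh1g9* went from 54.7, 45.7, 29.4 and 26.1 CPM to 70.1, 88.7 and 50.9 CPM (log2 difference 0.85, SE 0.26, adjusted p = 0.0348), so that its lowest day 14 library was below its highest of day 8. *pcdh1g2* went from 4.02, 3.29, 0.652 and 1.71 CPM to 8.75, 6.35 and 6.01 CPM (log2 difference 1.56, SE 0.45, adjusted p = 0.0284). *pcdh1a3* (0.97, SE 0.32, adjusted p = 0.0437) and *pcdh1g1* (1.73, SE 0.47, adjusted p = 0.0228) overlapped between phases, and *pcdh1g1* was at 11.8 CPM in replicate 2 of day 14 against 2.52 and 5.43 CPM in the other day 14 libraries, so that without this library its log2 difference was 1.01. Leaving out single libraries ended the calls of these 4 genes: each was lost on omission of replicate 4 of day 8 or replicate 2 of day 14, *pcdh1g9*, *pcdh1a3* and *pcdh1g1* also without replicate 3 of day 8, *pcdh1a3* without replicate 2 and *pcdh1g1* without replicate 1 of day 8, *pcdh1g9*, *pcdh1g2* and *pcdh1a3* without replicate 1 of day 14, and *pcdh1g2* without replicate 4 of day 14. Without TMM scaling the calls of *pcdh1g9*, *pcdh1g2* and *pcdh1a3* were lost. *pcdh2g28*, with the most counts of the cluster genes, did not follow them: it was at 224, 166, 99.2 and 119 CPM on day 8 and at 153, 140 and 113 CPM on day 14 (log2 difference -0.16, SE 0.25).

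**Figure D4:**
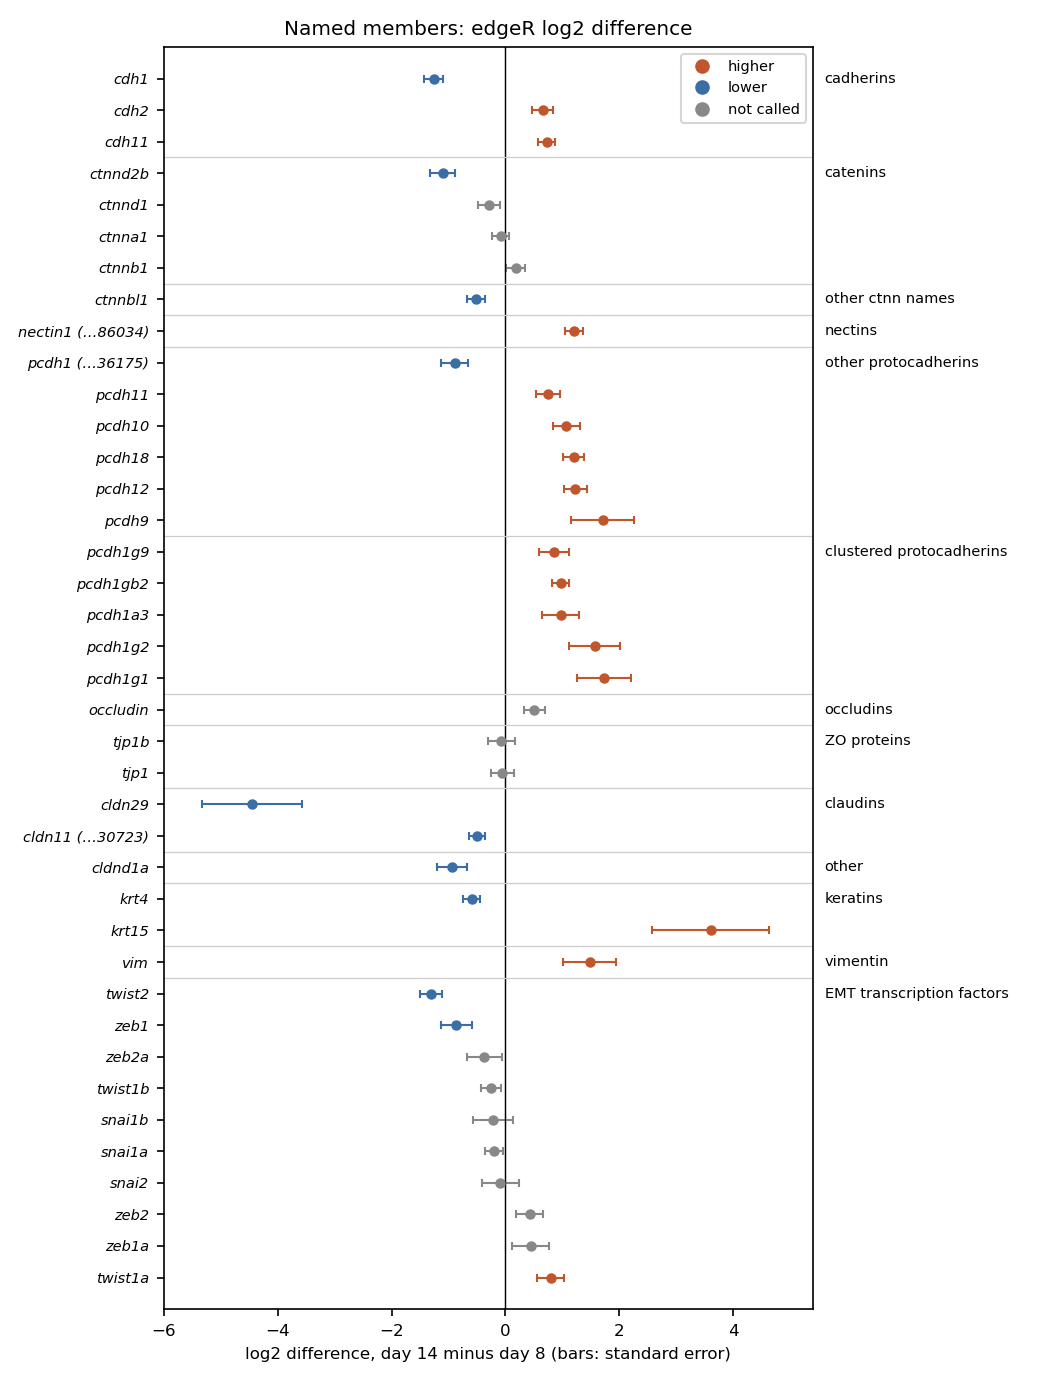
Log2 difference between day 14 and day 8 (x axis) with its standard error for genes named by rule, ordered by role. Orange and blue mark genes called higher and lower at an edgeR adjusted p below 0.05, grey those not called; *cldn29* and *krt15*, at the far left and right, rest on few counts.

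Among tight junction genes some were called and others were not, as among all genes, of which 25.3% were called in either direction. ENSDARG00000057826, the occludin of the study, was at 13.5, 14.5, 9.51 and 12.2 CPM on day 8 and at 21.6, 15.4 and 16.0 CPM on day 14. Its day 14 libraries were all above those of day 8, by 1.42-fold, but it was not called (log2 difference 0.51, SE 0.19, edgeR adjusted p = 0.0711) here or in any of the 14 alternatives. Of the ZO proteins, *tjp1* was at 56.1 to 99.2 CPM on day 8 and 62.8 to 91.1 CPM on day 14 (log2 difference -0.06, SE 0.20), and *tjp1b* at 9.19 to 18.5 CPM and 10.9 to 14.4 CPM (log2 difference -0.07, SE 0.24). Both ranges of day 14 lay within those of day 8. The junctional adhesion molecule *jam3* (ENSDARG00000061794) was at 246, 222, 158 and 230 CPM on day 8 and at 309, 328 and 311 CPM on day 14 (log2 difference 0.56, SE 0.17, adjusted p = 0.0290). It rose with no overlap, but the call was lost when the TMM scaling, replicate 2 of day 8 or any 1 of the day 14 libraries was left out.

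Among 18 claudins, 1 was called higher and 2 lower (25.3% of all genes were called in either direction), and the median log2 difference was -0.14. *cldn11* (ENSDARG00000030723), whose mammalian counterpart belongs to myelin and Sertoli cells, fell from 33.4, 34.5, 32.7 and 34.3 CPM to 24.1, 22.2 and 24.9 CPM (log2 difference -0.51, SE 0.14, adjusted p = 0.0181). The fall was small beside that of *cdh1*, but the replicates of each phase lay close together and the phases did not overlap. The call was lost without replicate 2 of day 8 or replicate 1 or 2 of day 14. The second *cldn11* identifier, ENSDARG00000020031, had more counts and did not fall with it, at 190 to 226 CPM on day 8 and 190 to 276 CPM on day 14 (log2 difference 0.18, SE 0.16). *cldn29* had 3, 30, 22 and 63 counts on day 8 and 3, 0 and 1 on day 14 (edgeR adjusted p = 0.00318). Over the pooled libraries of each phase, 118 counts stood against 4, a level 25.0 times lower on day 14 (95% counting interval 9.50 to 93.2, which leaves out the spread between replicates), and replicate 1 of day 8 was already close to the day 14 libraries. The fitted log2 difference, which at so few counts depends on the fit, was -4.45, and went to -5.30 without replicate 1 of day 14 and to -3.84 without replicate 4 of day 8. *cldn15b* rose from 10.7, 10.3, 12.3 and 13.6 CPM to 14.2, 19.5 and 21.4 CPM (log2 difference 0.64, SE 0.18, adjusted p = 0.0234), which was lost with no TMM scaling and on omission of replicate 2 of day 8 or replicate 2 or 4 of day 14. The claudin with steady mid-level counts, *cldn12*, was at 34.5 to 45.3 CPM on day 8 and 31.2 to 37.8 CPM on day 14 and was not called.

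Among the connexins, *gja1*, connexin 43, was the one with most counts, at 596, 569, 497 and 501 CPM on day 8 and at 705, 685 and 631 CPM on day 14. Its libraries did not overlap, yet the difference of 0.32 (SE 0.16) was not called (edgeR adjusted p = 0.174). *gjc4b* was at 119, 113, 126 and 107 CPM on day 8 and at 149, 202 and 138 CPM on day 14 and was called higher (log2 difference 0.49, SE 0.16, adjusted p = 0.0437). It was the 1 connexin of 10 with a call, or 10.0% against 25.3% of all genes. The call was lost with plain library totals or no robust estimation. It was also lost when replicate 2 or 4 of day 8 or replicate 1 or 2 of day 14 was omitted.

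Keratins took 0.510% to 0.615% of all counts in a library. *krt8* was at 2203, 2578, 2513 and 2388 CPM on day 8 and at 2599, 2756 and 2688 CPM on day 14 (log2 difference 0.15, SE 0.18). Its partners of simple epithelia, *krt18a.1* (1529 to 2461 CPM on day 8, 1862 to 2409.6 CPM on day 14; log2 difference 0.16, SE 0.21) and *krt18b* (661 to 735 and 665 to 786 CPM; 0.08, SE 0.16), were not called either, so no call was made for these keratins while *cdh1* fell. The day 14 libraries of *krt8* all lay above those of day 8, by a small margin (edgeR adjusted p = 0.596), and those of the others overlapped. *krt4*, a keratin of the fish epidermis, fell from 307, 352, 359 and 369 CPM to 232, 216 and 241 CPM (log2 difference -0.59, SE 0.15, adjusted p = 0.0122), a call lost without replicate 2 of day 14. *krt15* was listed at 0 counts in replicates 1 and 2 of day 8, 8 in replicate 3 and 33 in replicate 4, and at 159, 83 and 158 counts on day 14 (log2 difference 3.60, SE 1.03, adjusted p = 0.0462). All day 14 libraries lay above those of day 8, but this call was lost with the replicate as a block (edgeR adjusted p = 0.127), in DESeq2 and without replicate 1 or 3 of day 8 or any 1 day 14 library, and without replicate 4 of day 8 the log2 difference was 5.35. *krt18a.2*, below 1 CPM as a geometric mean in both phases, was called higher (0 to 0.544 CPM on day 8, 0.479 to 1.57 CPM on day 14; edgeR adjusted p = 0.0400). Its phases overlapped, and the call was lost with plain library totals and when replicate 2 or 4 of day 8 or any 1 day 14 library was omitted.

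Of the 10 factors of EMT, 1 was called higher and 2 lower, a share of 30.0% that is near the 25.3% of all genes. *twist2*, a mesenchymal factor of dermis and bone, had the largest fall of them, from 166, 166, 269 and 200 CPM to 86.1, 74.9 and 81.6 CPM (log2 difference -1.31, SE 0.19, adjusted p = 6.24e-04), and was called in all 14 alternatives. *twist1a* moved the other way, from 19.9, 22.5, 37.5 and 32.9 CPM to 33.4, 57.8 and 55.6 CPM (log2 difference 0.79, SE 0.24, adjusted p = 0.0327). Replicate 1 of day 14 lay below replicate 3 of day 8 and the call was lost with no TMM scaling and on omission of replicate 1 or 2 of day 8 or replicate 2 or 4 of day 14, whereas with the replicate as a block the edgeR adjusted p was 1.07e-04. Its paralog *twist1b* was at 48.5 to 72.9 CPM on day 8 and 48.5 to 52.9 CPM on day 14 (log2 difference -0.26, SE 0.17, edgeR adjusted p = 0.294). Within a library, the ratio of *twist1a* to *twist1b* counts was 0.409, 0.427, 0.551 and 0.452 on day 8 and 0.688, 1.09 and 1.10 on day 14; this ratio, too, was chosen after its values were seen.

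*zeb1* (ENSDARG00000013207), a repressor of *cdh1* in mammals, fell from 60.3, 42.2, 31.3 and 33.8 CPM to 29.8, 24.4 and 14.6 CPM (log2 difference -0.86, SE 0.27, adjusted p = 0.0362). The lowest day 8 library, replicate 3, was only just above the highest of day 14, and the call was lost without replicate 1 or 2 of day 8 or replicate 2 or 4 of day 14, while within replicates 1, 2 and 4 *zeb1* was lower on day 14 each time. *zeb1a*, with far fewer counts, was at 1.74 to 4.73 CPM on day 8 and 3.26 to 6.01 CPM on day 14, *zeb2* (ENSDARG00000078416) at 3.53 to 6.03 and 5.22 to 6.70 CPM, and *zeb2a* at 9.89 to 24.0 and 7.24 to 15.4 CPM. None of these 3 was called by edgeR (adjusted p = 0.341, 0.219 and 0.421) or in any of the alternatives. The Snail family repressors of *cdh1* were not called: *snai1a* was at 42.6, 41.4, 39.4 and 39.7 CPM on day 8 and at 40.7, 37.6 and 28.2 CPM on day 14 (log2 difference -0.20, SE 0.16, edgeR adjusted p = 0.387). *snai1b* and *snai2* were low in every library, between 0.874 and 2.01 CPM. Among the Snail, Twist and Zeb factors, *twist1a* was thus called higher and *twist2* and *zeb1* lower. The part of these factors in the fall of *cdh1* was not tested.

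Vimentin (*vim*, ENSDARG00000010008), the intermediate filament of mesenchymal cells, had 3 to 7 counts per library on day 8 and 13 to 21 on day 14, or 0.213 to 0.326 and 0.630 to 0.874 CPM. It was called higher (log2 difference 1.48, SE 0.46, adjusted p = 0.0332) with no overlap, but stayed below 1 CPM on both days, and the call was lost in DESeq2 and without any 1 library but replicate 3 of day 8. The epithelial factors *grhl1*, *grhl2a* and *ovol1b* were at most at 2.04 CPM in any library and none was called by edgeR (adjusted p = 0.204, 0.755 and 0.528).

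To compare epithelial with mesenchymal genes as sets, 30 genes of the matrix were counted as epithelial (*cdh1*, occludin, keratins, claudins of epithelia and the Grainyhead-like and Ovo-like factors) and 13 as mesenchymal (*cdh2*, *cdh11*, *vim* and the Snail, Twist and Zeb factors). The epithelial set had 3 genes higher (*krt15*, *krt18a.2* and *cldn15b*) and 3 lower (*cdh1*, *krt4* and *cldn29*), that is 6 called of 30, a smaller share than the 25.3% of all genes. The mesenchymal set had 4 higher (*cdh2*, *cdh11*, *twist1a* and *vim*) and 2 lower (*twist2* and *zeb1*), or 46.2% called. The median log2 difference was 0.11 in the epithelial set and -0.10 in the mesenchymal set. Without TMM scaling, where the median of all genes was -0.17, that of the epithelial set was -0.068. The mesenchymal median moved down there too. When replicate 1 of day 8 was left out the mesenchymal median turned to 0.006, and when replicate 2 of day 14 was, to 0.088. The opposite changes of *cdh1* and *cdh2* were thus not seen in the medians of the sets. In the mesenchymal set the count of higher genes was 2 without TMM scaling, 2 without replicate 1 or 4 of day 8 or replicate 1 of day 14, and 1 when replicate 2 of day 8 or replicate 2 or 4 of day 14 was omitted, and that of lower genes was 1 without replicate 1 or 2 of day 8 or replicate 2 or 4 of day 14. In the epithelial set the count of higher genes was 1 without TMM scaling or replicate 2 of day 8 and 0 without replicate 2 or 4 of day 14.

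**Figure D5:**
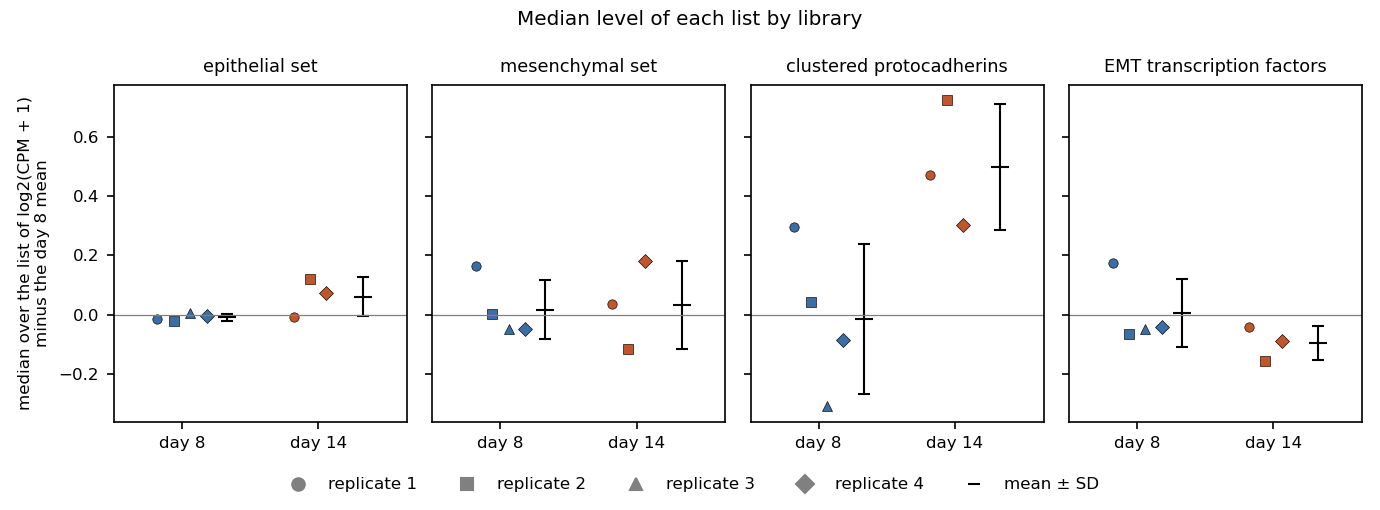
Median over the genes of each list of log2(CPM + 1) minus that gene's day 8 mean (y axis) in each library, with the symbol giving the replicate and the black mark the mean ± SD of the phase. The medians of the epithelial set, the mesenchymal set and the EMT factors overlap between the phases, while those of the 15 clustered protocadherins are higher in all 3 day 14 libraries (0.30 to 0.72) than on day 8 (-0.31 to 0.29).

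Names that the rule caught beside the junction genes included *ctnnbl1*, a splicing-related protein with a catenin-like fold, which fell from 43.3, 55.5, 61.9 and 52.3 CPM to 37.6, 38.6 and 35.6 CPM (log2 difference -0.52, SE 0.16, adjusted p = 0.0288). Its call was lost without replicate 2 or 4 of day 8 or any 1 day 14 library. *cldnd1a*, a claudin domain protein, fell from 4.51 to 5.33 CPM to 1.60 to 3.33 CPM (log2 difference -0.94, SE 0.26, adjusted p = 0.0209), a call lost without replicate 2 or 4 of day 14, while *cldnd1* was at 20.2 to 27.3 and 19.9 to 34.3 CPM and was not called.

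Partners of these junctions that the naming rule does not cover were listed too. Of 8 adherens junction partners 1 was called higher, *lima1*, an actin-binding protein, from 105 to 140 CPM on day 8 to 167 to 204 CPM on day 14 (log2 difference 0.66, SE 0.16, adjusted p = 0.00871). Of 7 desmosome genes, *perp* was called higher (228 to 311 CPM, then 311 to 426 CPM; log2 difference 0.53, SE 0.17, adjusted p = 0.0396) and the plakophilin *pkp3a* lower, from 26.3, 24.2, 21.1 and 17.8 CPM to 12.0, 6.18 and 6.33 CPM (log2 difference -1.43, SE 0.25, adjusted p = 0.00162). Of 16 polarity genes, *pard6g* (log2 difference 0.46, SE 0.15) and *patj* (0.65, SE 0.22) were called higher by edgeR (adjusted p = 0.0460 and 0.0493) and *crb2a*, a Crumbs protein of the apical membrane, lower, from 30.3, 29.0, 17.5 and 27.2 CPM to 14.9, 9.79 and 13.6 CPM (log2 difference -1.02, SE 0.22, adjusted p = 0.00489). The calls of *crb2a* and *pkp3a* were kept in all 14 alternatives. That of *lima1* was lost with plain library totals and on omission of replicate 2 of day 14, and that of *perp*, whose phases overlapped, with plain library totals and when replicate 1, 2 or 3 of day 8 or replicate 2 or 4 of day 14 was omitted. *pard6g* lost its call with plain library totals and on omission of any 1 library but replicate 1 of day 8, and *patj* lost its call under the same settings and also with no robust estimation, in limma and with the replicate as a block (edgeR adjusted p = 0.0635). Of 6 further genes of epithelial identity, among them *marveld1* and *tp63*, none was called in edgeR's test of growth phase alone, and *marveld1* was called higher with the replicate as a block (log2 difference 0.34, edgeR adjusted p = 0.0329), as was *marveld2* ENSDARG00000061651 on omission of replicate 1 of day 8 (0.0488). The block also called the polarity genes *pard6a* (edgeR adjusted p = 0.00274) and *llgl2* (0.0407) and the adherens partner *pkp4* (0.0185) lower, and the desmoplakin *dsp* ENSDARG00000022309 (0.0399) higher. Without the block, each of these lists except the desmosome genes had a smaller share of calls than the 25.3% of all genes.

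Of 13 genes of the mesenchymal matrix and cytoskeleton, 6 were called higher and 2 lower, or 61.5% against 25.3% of all genes, with a median log2 difference of 0.46. *sparc*, a collagen-binding matrix protein, rose from 400, 359, 545 and 507 CPM to 1429, 1963 and 1851 CPM (log2 difference 1.95, SE 0.21, adjusted p = 1.20e-04). The fibronectin genes went in opposite directions: *fn1* ENSDARG00000006526 rose from 7.23 to 17.4 CPM to 28.9 to 42.7 CPM (log2 difference 1.42, SE 0.25, adjusted p = 0.00194), while *fn1* ENSDARG00000019815, with more counts, fell from 312, 253, 157 and 228 CPM to 158, 93.8 and 132 CPM (log2 difference -0.89, SE 0.24, adjusted p = 0.0164), a call lost on omission of replicate 2 or 4 of day 14. The mesenchymal homeobox gene *prrx1* (ENSDARG00000042027) rose from 76.7 to 97.1 CPM to 171 to 240 CPM (log2 difference 1.20, SE 0.16, adjusted p = 3.62e-04). The second *prrx1* identifier, ENSDARG00000033971, with more counts, was at 388 to 542 CPM on day 8 and 433 to 565 CPM on day 14 and was not called (log2 difference 0.12, SE 0.18, edgeR adjusted p = 0.675). The collagen genes *col1a1* (ENSDARG00000035809) and *col1a2* and the periostin gene *postn* were called higher as well (edgeR adjusted p = 0.0109, 0.0378 and 0.0139). These calls were lost in 2, 7 and 3 of the 14 alternatives. The related gene *col1a1a* (ENSDARG00000012405) had more counts than *col1a1* and overlapped between phases. It was not called (log2 difference 0.44, SE 0.25, edgeR adjusted p = 0.230) here or in any of the 14 alternatives. Neither *tagln* identifier was called in edgeR's test of growth phase alone. *tagln* ENSDARG00000033466 was lower with no overlap (log2 difference -0.55, SE 0.19, edgeR adjusted p = 0.0504). It was called lower in 6 of the 14 alternatives, among them the replicate as a block (edgeR adjusted p = 0.0162). *tagln* ENSDARG00000045408 overlapped between phases and was called higher in 2 of the 14, among them the block (edgeR adjusted p = 0.00198).

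The day 8 replicates differed from each other across these genes. Of the 105 genes above 1 CPM, 64 (61.0%) had their highest day 8 level in replicate 1, the library with the fewest counts, against 30.9% of all genes above 1 CPM, and 43 (41.0%) had their lowest in replicate 3, against 32.7%. *cdh2*, *nectin1*, *pcdh12*, *ctnnd2b* and *zeb1* all followed this order, in which replicate 1 was highest and replicate 3 lowest, on day 8. *twist1a* and *twist2* had their highest day 8 level in replicate 3. Without replicate 1 of day 8, 18 of the 121 genes were called higher and 11 lower, and without replicate 3 of day 8, 16 and 12.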

How the data were processed

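RNA was sequenced from 7 libraries of PAC2 cells, 4 of day 8 and 3 of day 14, from stranded poly-A libraries. Per the labels and methods, the authors ran Kallisto, which pseudo-aligns reads, on the transcriptome of Ensembl GRCz11, added up transcripts by gene, and filtered out barely expressed genes using edgeR 4.6.2. The deposited matrix was read as estimated counts of 17570 genes. It is titled normalized, but the library totals differ (11252559 to 33414743), so the values were not scaled to a common total. They were treated as estimated counts, and whether they had been adjusted for transcript length was not tested. Proteomics was not analysed here.

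Gene names were taken from an Ensembl name table, in which 15073 of the 17570 identifiers (85.8%) had a name. The members, lists and tests were chosen with earlier results of these data known, and no list is independent evidence. Genes named in full were a fixed list of cadherin, junction and EMT genes, whatever their result (*epcam* is not analysed here), and the called members with a mean of at least 1 CPM, up to 15 in each direction, and of junction partners up to 3 called genes a list. Other genes named, such as *jam3*, *gjc4b*, *cldn15b*, *gja1*, *krt8* and *ctnnb2*, were chosen after their values were seen, as were the ratios of paralogs. Some genes that the rule names are not reported here.

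Estimated counts were rounded and tested with edgeR 4.0.16 in R 4.3.3 (TMM, estimateDisp, glmQLFit with robust estimation, glmQLFTest) in a model of growth phase alone, and p-values were adjusted over all genes by Benjamini-Hochberg. A standard error is the absolute log2 difference divided by the square root of the F statistic. The 14 alternatives were no TMM scaling, median-of-ratios scaling, only genes above 1 CPM tested, no robust estimation, the replicate as a block, DESeq2 1.42.0, limma 3.58.1 on log2(CPM + 1) and the omission of each of the 7 libraries. Figures were drawn with matplotlib 3.10.9. Counting intervals cover counting error only.

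By the study's methods, replicates came from different passages begun on different days, which pairs equal run numbers of the labels across phases. Deviations from the phase means correlated by 0.32, -0.13 and 0.40 in replicates 1, 2 and 4, and by -0.35 to 0.36 between other numbers. The chi-square per degree of freedom between any pair of libraries was at least 14.4, so each library counted as its own sample. On simulated counts with 200 of 17570 genes changed 4-fold, edgeR called 203 genes, 187 of them changed ones. All changed genes had a mean above 1 CPM. The simulation thus did not cover smaller differences, changed genes with fewer counts, or a share of changed genes as large as the 25.3% called in the data.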

Additional observations from a re-analysis of the deposited data

Results flagged for a closer look

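Of 41 day 8 values of named genes and the cadherin ratio, each over 4 libraries, 2 held a library that lay apart from the others by Dixon's criterion, which chance meets in about 1 in 20 groups. *snai1b* was at 2.01 CPM in replicate 1 of day 8 against 1.25 to 1.32 CPM in the other 3, and *pcdh1a3* was at 6.41 CPM in replicate 1 of day 8 against 2.50 to 2.99 CPM. Both were highest in the same library, the one with the fewest counts. The groups of 3 libraries of day 14 were not tested in this way.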

How the results depend on the processing

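Without TMM scaling the median log2 difference of all genes moved to -0.17. There, 1218 genes of the matrix were called higher, 9 of the 121 members were called higher, 1 gene of the epithelial set and 2 of the mesenchymal set were called higher, the set medians were -0.068 and -0.27, and *cdh2*, at 0.45, was not called. With the replicate as a block, 18 members were called lower and 19 higher: 30 of the 31 calls were shared, *krt15* was lost, and 7 were added, all lower (*ctnnb2*, *pcdh19*, *pcdh20*, *gja5*, *ctnnd1*, *pcdh15* ENSDARG00000098257 and *cdh18*); no other call among the members changed with the block, and the log2 ratio of *cdh2* to *cdh1* rose by 1.87 as the mean of 3 pairs. Leaving out each library in turn gave 1282 to 2317 higher and 1361 to 2544 lower genes over the matrix, 6 to 18 higher and 4 to 12 lower members, 0 to 2 higher and 2 to 4 lower genes in the epithelial set (median 0.022 to 0.14), 1 to 4 higher and 1 to 2 lower in the mesenchymal set (median -0.17 to 0.088), and a *cdh2* difference of 0.53 to 0.82. *cdh1* stayed lower and called in all 14 alternatives, from -1.44 to -1.17. No member called in both the reported analysis and an alternative changed direction. For the other 37 named genes, 445 of their results under the alternatives kept their status, called or not called. A call was lost in 70 results and gained in 2. The 445 include genes that were called in neither analysis, so they are not a count of kept calls. With a limit of 0.5 CPM 120 members were detected, and 93 with more than 1 CPM in every library of a phase. Genes with few counts, such as *vim*, *cldn29*, *krt15* and *pcdh9*, are limited by depth.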
